A study of Mus musculus with 12 samples.

Results

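The Polycomb complex genes Ezh1, Ezh2, Eed, Suz12, Jarid2, Mtf2, Phf19, Cbx7, Cbx2 and Bmi1 were followed in mRNA-Seq libraries of mouse fibroblasts undergoing reprogramming. These 10 genes were chosen by symbol from the 24098 genes of the deposited expression table, and all 10 were found. Each reached at least 1 FPKM (fragments per length of transcript and per mapped fragment) in at least 1 library, as did 14178 genes of the table. Cbx7 and Jarid2 were the members with the widest range, and both were higher at each of the 6 steps of the route from fibroblasts to iPSCs. Ezh1, Phf19 and Bmi1 followed other courses.

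The study used mouse embryonic fibroblasts (MEFs) with a GFP reporter at Oct4, infected with pMXs retroviruses carrying Oct4, Sox2, Klf4 and c-Myc (OSKM). The library D0 came from fibroblasts on day 0, listed as wild-type, and D3 from unsorted cells on day 3 after OSKM induction. The study's methods derive its MEFs from embryos with the Oct4 reporter, so wild-type need not mean a genotype without it. On days 6 and 9 the cells were split by Thy-1, a fibroblast surface protein, into D6T-, D9T- (Thy-1-) and D6T+, D9T+ (Thy-1+). On days 12 and 16 they were split by SSEA-1, a glycan on the surface of pluripotent cells, into D12S+, D16S+ (SSEA-1+) and D12S-, D16S- (SSEA-1-). The Thy-1- and SSEA-1+ cells are treated in the study as the successful route and the others as the unsuccessful one. From D3 to day 6 and from day 9 to day 12 the sort changes along with the day. In these steps time and sort cannot be told apart. Fully reprogrammed iPSCs and wild-type mouse embryonic stem cells (mESCs, the ESD3 line) were the end points. Per the sample labels, all cells after D0 and the mESCs were grown in FF medium with LIF, ascorbic acid, bFGF and CHIR99021. The study's methods differ, naming mESC or KOSR medium for iPSCs and the ES-D3 line, and mainly these or FF medium for reprogramming. Whether the iPSCs were 1 clone or several was not given in the sources used here, and the mESCs were 1 line.

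Polycomb proteins keep genes silent through marks on histones. Polycomb repressive complex PRC2 methylates a lysine of the histone H3 tail with Ezh1 or Ezh2 as the enzyme, and the complex PRC1 ubiquitinates histone H2A. Canonical PRC1 holds a CBX protein that reads the PRC2 mark. In embryonic stem cells these complexes are known to cover promoters of developmental genes, and in fibroblasts they are known for the repression of the Cdkn2a locus.

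Each of the 12 conditions had 1 library and no replicate, so no difference given here has a replicate check and none was tested. The FPKM of all genes summed to 648264 in D0, the highest sum, and to 484968 in D16S+, the lowest. The smallest steps between low values, read as the worth of 1 fragment, gave estimated depths of 19750000 fragments in D9T+ to 32060000 in D6T-. Scaling factors by the median of ratios over genes lay between 0.9851 and 0.9999 in all libraries. The deposited values may therefore have been scaled already, and these depths need not be counts of mapped fragments. With the same steps, the lowest value of a member rested on 47 fragments (Bmi1 in mESCs) and the highest on 20306 (Jarid2 in iPSCs). Both are upper estimates, as the longest transcript was taken as the length. The deposited intervals were far wider than this counting error, and their lower end was 0 in 96 of the 120 values of the members. Neighbouring libraries in the order of a member's levels had overlapping intervals in all 110 of 110 pairs, so these orders are descriptions only. The fibroblast markers Thy1, Col1a1, Col1a2, Pdgfrb and Twist1 summed to 5939 FPKM in D0 and 52.7 FPKM in iPSCs. The pluripotency markers Nanog, Zfp42, Esrrb, Dppa5a, Tdgf1 and Dppa4 summed to 1.88 FPKM in D0, 4388 FPKM in D16S+, 113 FPKM in D16S-, and at the end points to 3085 FPKM (iPSCs) and 3649 FPKM (mESCs). The labelled cell types therefore carried their defining markers. Since the libraries are of bulk RNA, fewer cells of a type and less RNA per cell cannot be told apart.

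Promoter sequences are shown for the 3 members whose window held the E2F letters described next, and for Cbx7 as the member with the widest range. RefSeq windows of 300 bases (GRCm38.p6, 250 bases before the start and 50 after) were given for 9 of the 10 members, in 11 windows, and not for Cbx2. They were searched on both strands for 4 spellings of the E2F core, namely TTCCCGC, or else TTGGCGC, or else TTCGCGC, or else TTGCCGC, letters bound by the E2F factors that drive genes of the cell cycle. The letters were found in 3 of the 9 members, Ezh2, Suz12 and Phf19, and in 19.1% of the 10546 kept genes with a window. The first 280 bases are printed 5′ to 3′ on the gene's strand, with the E2F letters in capitals. The window of Cbx7 held none of these letters, nor did those of Ezh1, Eed, Jarid2, Mtf2 and Bmi1, which are not printed. The Ezh2 window is chr6:47595001-47595280 on the minus strand, that of Suz12 chr11:79992856-79993135 on the plus strand, that of Phf19 chr2:34913947-34914226 on the minus strand and that of Cbx7 chr15:79932617-79932896 on the minus strand.
Ezh2: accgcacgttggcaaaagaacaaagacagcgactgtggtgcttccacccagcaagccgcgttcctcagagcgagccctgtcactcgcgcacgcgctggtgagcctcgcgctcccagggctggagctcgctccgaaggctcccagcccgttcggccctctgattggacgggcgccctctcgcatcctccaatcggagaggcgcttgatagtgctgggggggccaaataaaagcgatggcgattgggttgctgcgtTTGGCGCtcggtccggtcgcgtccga
Suz12: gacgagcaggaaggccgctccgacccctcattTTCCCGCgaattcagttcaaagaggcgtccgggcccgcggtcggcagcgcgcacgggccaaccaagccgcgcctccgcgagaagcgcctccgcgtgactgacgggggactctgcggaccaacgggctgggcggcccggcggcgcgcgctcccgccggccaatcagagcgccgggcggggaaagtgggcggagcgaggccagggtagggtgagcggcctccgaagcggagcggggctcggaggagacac
Phf19: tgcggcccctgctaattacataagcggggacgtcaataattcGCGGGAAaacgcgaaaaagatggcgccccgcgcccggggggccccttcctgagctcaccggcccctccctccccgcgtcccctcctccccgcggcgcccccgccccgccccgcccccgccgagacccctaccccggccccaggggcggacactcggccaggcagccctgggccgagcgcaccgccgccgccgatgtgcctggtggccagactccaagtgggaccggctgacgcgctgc
Cbx7: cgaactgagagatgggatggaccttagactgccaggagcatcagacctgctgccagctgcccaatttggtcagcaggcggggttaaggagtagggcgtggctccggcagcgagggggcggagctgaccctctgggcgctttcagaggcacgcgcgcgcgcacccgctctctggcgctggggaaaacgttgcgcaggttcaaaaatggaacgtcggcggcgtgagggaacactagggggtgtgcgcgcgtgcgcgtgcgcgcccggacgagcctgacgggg
With the start counted as 1 and the base before it as -1, the first letter of the match was at 5 in Ezh2, at -218 in Suz12 and, on the opposite strand, at -208 in Phf19. The 4 printed genes had the highest CpG counts of the member windows, with 31 CpG dinucleotides in Ezh2, 41 in Suz12, 38 in Phf19 and 33 in Cbx7. Over all 11 member windows the count ran from 2 (1 of the Mtf2 windows) to 41 with a median of 24.0, against a median of 20 over the 13479 windows of kept genes. A match of letters is a description and not a binding site.

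The catalytic subunits of PRC2 were examined next. Ezh2, the methyltransferase that dominates in dividing cells, was at 6.48 FPKM in D0, 7.62 in D3, 12.7 in D6T-, 11.6 in D9T-, 16.9 in D12S+, 21.9 in D16S+, 22.3 in iPSCs and 28.0 in mESCs. In the other fractions it was at 5.94 FPKM in D6T+, 5.55 in D9T+, 8.37 in D12S- and 5.06 in D16S-. The 4 fractions of the unsuccessful route thus lay between 5.06 and 8.37 FPKM, as did D0 and D3, while the other 6 libraries lay above. Ezh2 was 3.43-fold higher in iPSCs than in D0, a log2 difference of 1.64 on the log2(FPKM + 1) scale used throughout. The gene lies on chromosome 6 (47480273 to 47545340, minus strand, mm9).

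Ezh1, its paralog of lower enzymatic activity that is known from non-dividing cells, took another course. It was at 5.40 FPKM in D0, 9.51 in D3, 11.2 in D6T-, 14.1 in D9T-, 20.9 in D12S+, 19.4 in D16S+, 8.99 in iPSCs and 17.4 in mESCs. It was at 10.1 FPKM in D6T+, 11.8 in D9T+, 25.0 in D12S- and 23.4 in D16S-. The 2 highest libraries were the SSEA-1- fractions and the lowest was D0. Ezh1 in D16S- was 4.33-fold above D0 (log2 difference 1.93), and in D16S+ 3.59-fold (1.67). From D16S+ to iPSCs it fell by 1.03 on the log2 scale. Ezh1 is on chromosome 11 (101052429 to 101087777, minus strand).

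**Figure D1:**
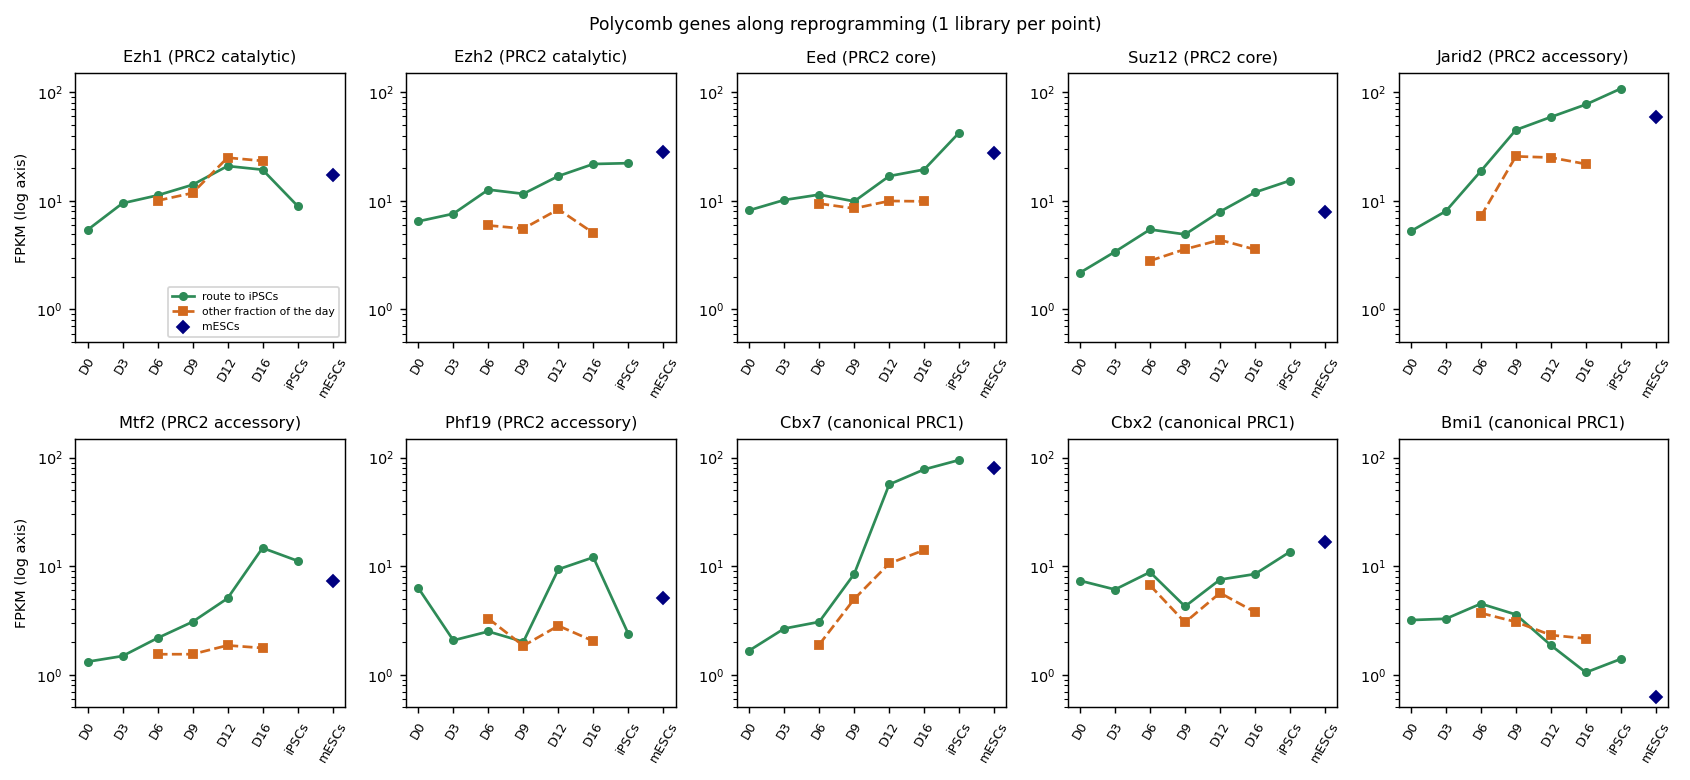
FPKM of the 10 Polycomb genes (log axis) in each library, 1 library per point. Green circles joined by lines follow the route from D0 over the Thy-1- and SSEA-1+ fractions to iPSCs, orange squares are the other sorted fraction of the same day and the diamond is mESCs; Cbx7 runs from 1.67 FPKM (D0) up to 95.1 FPKM (iPSCs), whereas Bmi1 stays at or below 4.51 FPKM in every library.

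As FPKM is per transcript length, the paralogs can be set against each other. Ezh2 made up 54.6% of the summed Ezh1 and Ezh2 FPKM in D0, 44.5% in D3, 53.0% in D6T-, 45.2% in D9T-, 44.7% in D12S+, 53.0% in D16S+, 71.2% in iPSCs and 61.7% in mESCs. Its share was 37.1% in D6T+, 32.0% in D9T+, 25.1% in D12S- and 17.8% in D16S-. In each of the 4 sorted pairs the share was lower in the fraction of the unsuccessful route, and the SSEA-1- fractions had the lowest shares of all 12 libraries. The intervals of both genes were wide enough to allow almost any share, so these percentages carry no bound. The summed FPKM of 8 proliferation genes (Mki67, Top2a, Ccnb1, Cdk1, Mcm2, Mcm5, Pcna and E2f1) was lower in the same fractions. It was at 271 FPKM in D6T+ against 431 in D6T-, 231 in D9T+ against 346 in D9T-, 282 in D12S- against 530 in D12S+ and 187 in D16S- against 667 in D16S+. Of the 8 genes, E2f1 alone went the other way on days 6 and 9. E2f1 was at 31.3 FPKM in D6T+ against 25.7 in D6T-, and at 35.3 in D9T+ against 30.7 in D9T-. Over the 12 libraries, which share the route and are not independent, the median log2 level of these genes had a Pearson correlation of 0.82 with Ezh2 and of -0.05 with Ezh1. The correlation was 0.85 for Mtf2, 0.79 for Phf19, 0.75 for Suz12, 0.72 for Cbx2, 0.70 for Eed, 0.66 for Cbx7 and 0.56 for Jarid2. That of Bmi1 was -0.60. It was not computed for the other kept genes, so whether these values are particular to the members is not known. D0 lay low in Ezh2 for its proliferation level, with a sum of 325 FPKM and Ezh2 at 6.48 FPKM. The part of proliferation in the levels of the members was not tested.

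**Figure D2:**
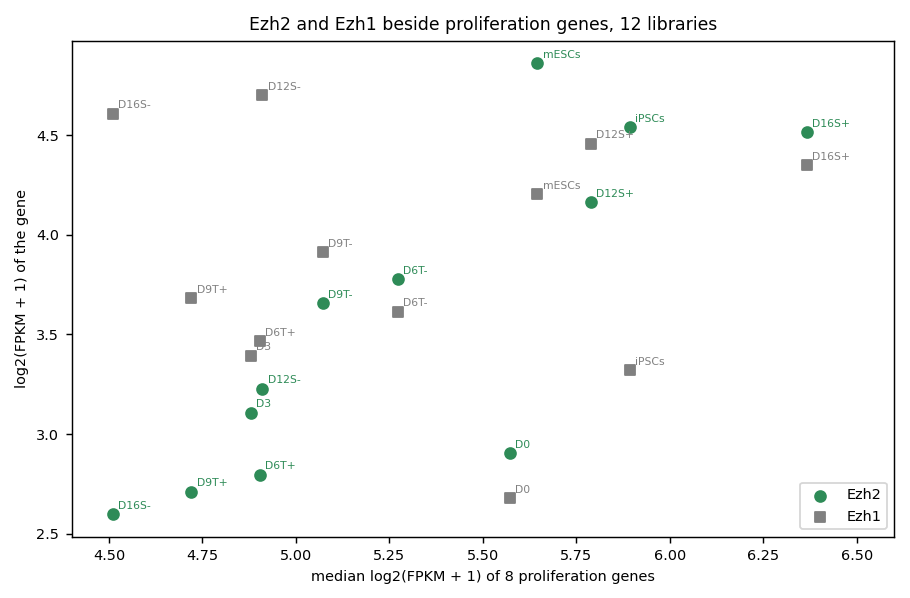
Log2(FPKM + 1) of Ezh2 (green circles) and Ezh1 (grey squares) against the median log2(FPKM + 1) of the 8 proliferation genes, 1 point per library for 12 libraries. Ezh2 is lowest in D16S-, where the proliferation genes are lowest as well (median 4.51), and D0 lies at a proliferation median of 5.57 with a low Ezh2.

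The core partners of the enzyme were higher at the end of the route. Eed, which binds the methylated histone tail and stimulates the enzyme, was at 8.19 FPKM in D0, 10.2 in D3, 11.4 in D6T-, 9.90 in D9T-, 16.9 in D12S+, 19.5 in D16S+, 42.6 in iPSCs and 27.9 in mESCs. In the other fractions it stayed between 8.51 FPKM (D9T+) and 9.98 FPKM (D12S-), with 9.45 in D6T+ and 9.90 in D16S-. Its largest step on the route was the last, from D16S+ to iPSCs (log2 difference 1.09, 2.19-fold), and Eed was the only member past 2-fold upwards in that step. With total FPKM equalised between libraries the step was 0.93. Eed is on chromosome 7 (97103166 to 97129493, minus strand).

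Suz12, the scaffold on which PRC2 is assembled, was at 2.18 FPKM in D0, 3.40 in D3, 5.45 in D6T-, 4.91 in D9T-, 7.96 in D12S+, 12.0 in D16S+, 15.4 in iPSCs and 7.88 in mESCs. The other fractions had 2.81 FPKM in D6T+, 3.59 in D9T+, 4.37 in D12S- and 3.57 in D16S-, each below its partner of the same day. Suz12 was 7.06-fold higher in iPSCs than in D0 (log2 difference 2.37) and 3.36-fold higher in D16S+ than in D16S- (1.51). It is on chromosome 11 (79806608 to 79847625, plus strand). Exons of Ezh2, Suz12 and Mtf2 overlap exons of a gene on the opposite strand (Gm17629, Gm16706 and Tmed5). The sample labels name a stranded kit, the study's methods name a TruSeq kit without calling it stranded, and whether the counting used strand was not given in the sources used here. Reads of such overlapping genes may therefore not be told apart, and the values of these 3 genes are uncertain to that extent.

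Among the accessory subunits, Jarid2 reached the highest level of the members. Jarid2, a DNA-binding cofactor that stimulates PRC2, was at 5.26 FPKM in D0, 8.04 in D3, 18.8 in D6T-, 45.0 in D9T-, 59.2 in D12S+, 77.3 in D16S+, 108 in iPSCs and 58.7 in mESCs. In the other fractions it was at 7.21 FPKM in D6T+, 25.7 in D9T+, 25.1 in D12S- and 21.9 in D16S-. On the successful route it was thus higher in each later library, and its largest steps were from D3 to D6T- (log2 difference 1.13) and from D6T- to D9T- (1.22). On the unsuccessful route it was higher in D9T+ than in D6T+ and lay between 21.9 and 25.7 FPKM from then on. D16S- was still 4.16-fold above D0 (log2 difference 1.87). Jarid2 is on chromosome 13 (44824843 to 45017012, plus strand).

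Mtf2 and Phf19 are Polycomb-like proteins, which bring PRC2 to CpG-rich DNA. Mtf2 was at 1.32 FPKM in D0, 1.49 in D3, 2.18 in D6T-, 3.07 in D9T-, 5.05 in D12S+, 14.7 in D16S+, 11.2 in iPSCs and 7.34 in mESCs. It stayed between 1.54 and 1.86 FPKM in D6T+, D9T+, D12S- and D16S-, close to D0 and D3. The 8.35-fold ratio of D16S+ to D16S- (log2 difference 2.51) was the largest of the members on day 16. Its largest step fell between D12S+ and D16S+ (log2 difference 1.38). Mtf2 is on chromosome 5 (108494693 to 108538023, plus strand).

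Phf19 did not move in 1 direction. It was at 6.29 FPKM in D0, 2.07 in D3, 2.50 in D6T-, 2.01 in D9T-, 9.36 in D12S+, 12.1 in D16S+, 2.38 in iPSCs and 5.09 in mESCs. The other fractions held 3.29 FPKM in D6T+, 1.85 in D9T+, 2.83 in D12S- and 2.04 in D16S-. D12S+ and D16S+ were therefore the 2 highest libraries, and D0 was the third. Phf19 fell by 1.25 on the log2 scale from D0 to D3, was 1.78 higher in D12S+ than in D9T-, and fell by 1.95 from D16S+ to iPSCs. Such a transient level was not seen in Mtf2, at 11.2 FPKM in iPSCs against 14.7 FPKM in D16S+. Phf19 is on chromosome 2 (34749277 to 34769546, minus strand).

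In canonical PRC1, Cbx7 had the widest range of the members. Cbx7, a CBX protein that reads the PRC2 mark and is known as the prevailing one in embryonic stem cells, was at 1.67 FPKM in D0, 2.66 in D3, 3.07 in D6T-, 8.48 in D9T-, 56.6 in D12S+, 77.9 in D16S+, 95.1 in iPSCs and 80.1 in mESCs. In the other fractions it was at 1.89 FPKM in D6T+, 4.98 in D9T+, 10.6 in D12S- and 14.1 in D16S-. The 4 libraries from D12S+ to mESCs all lay above the other 8. Cbx7 was 57.0-fold higher in iPSCs than in D0 (log2 difference 5.17). Its deposited intervals did not overlap between these libraries (5.34 to 185 FPKM against 0 to 4.63 FPKM). Those of the other members overlapped, and the share of all kept genes with intervals apart was not computed. The step from D9T- to D12S+ (log2 difference 2.60, 6.68-fold) was the largest of any member. It also changes the sorting marker, and the SSEA-1- cells of day 12 were at 10.6 FPKM against 8.48 FPKM in D9T-. Cbx7 also differed between D16S- and D0, at 8.44-fold (log2 difference 2.50), so it was higher on both routes. The gene is on chromosome 15 (79746237 to 79801549, minus strand).

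Cbx2, a CBX protein known for compacting nucleosomes, was within narrower limits. It was at 7.35 FPKM in D0, 6.10 in D3, 8.81 in D6T-, 4.26 in D9T-, 7.53 in D12S+, 8.46 in D16S+, 13.6 in iPSCs and 16.6 in mESCs. It was at 6.66 FPKM in D6T+, 3.04 in D9T+, 5.67 in D12S- and 3.78 in D16S-. The end points were the 2 highest libraries and D9T+ the lowest. Only in mESCs was Cbx2 past 2-fold above D0 (log2 difference 1.07), and in iPSCs the difference was 0.80. With total FPKM equalised between libraries Cbx2 was past 2-fold in iPSCs as well (1.02). Cbx2 is on chromosome 11 (118884276 to 118892584, plus strand).

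Bmi1, a RING-finger partner of the PRC1 ubiquitin ligase that is known for the repression of Cdkn2a, ran the other way. It was at 3.19 FPKM in D0, 3.28 in D3, 4.51 in D6T-, 3.59 in D9T-, 1.87 in D12S+, 1.05 in D16S+, 1.40 in iPSCs and 0.619 in mESCs. It was at 3.70 FPKM in D6T+, 3.07 in D9T+, 2.32 in D12S- and 2.16 in D16S-. The 4 lowest libraries were D12S+, iPSCs, D16S+ and mESCs, the same 4 in which Cbx7 was highest. Bmi1 was lower than in D0 by 1.03 on the log2 scale in D16S+ and by 1.37 in mESCs, and its difference in iPSCs was -0.81. The call in D16S+ did not hold when total FPKM was equalised between libraries (-0.75). Bmi1 is on chromosome 2 (18598645 to 18608256, plus strand).

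The shares of the PRC1 paralogs were computed in the same way. Cbx7 made up 2.05% of the summed FPKM of Cbx2, Cbx6, Cbx7 and Cbx8 in D0, 6.71% in D3, 6.08% in D6T-, 16.0% in D9T-, 51.5% in D12S+, 66.7% in D16S+, 70.0% in iPSCs and 64.2% in mESCs. It made up 3.45% in D6T+, 8.72% in D9T+, 16.3% in D12S- and 22.9% in D16S-. Cbx7 was thus the highest of these 4 genes in D12S+, D16S+, iPSCs and mESCs, and Cbx6 was the highest in the other 8 libraries. Cbx6 was at 63.7 FPKM in D0 and 24.1 FPKM in iPSCs and Cbx8 at 8.66 and 3.08 FPKM. Bmi1 was the minor partner beside its paralog Pcgf2 (Mel18) in every library, at 10.0% of their summed FPKM in D0, 19.6% in D3, 2.82% in D16S+, 11.1% in D16S-, 2.21% in iPSCs and 1.28% in mESCs.

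**Figure D3:**
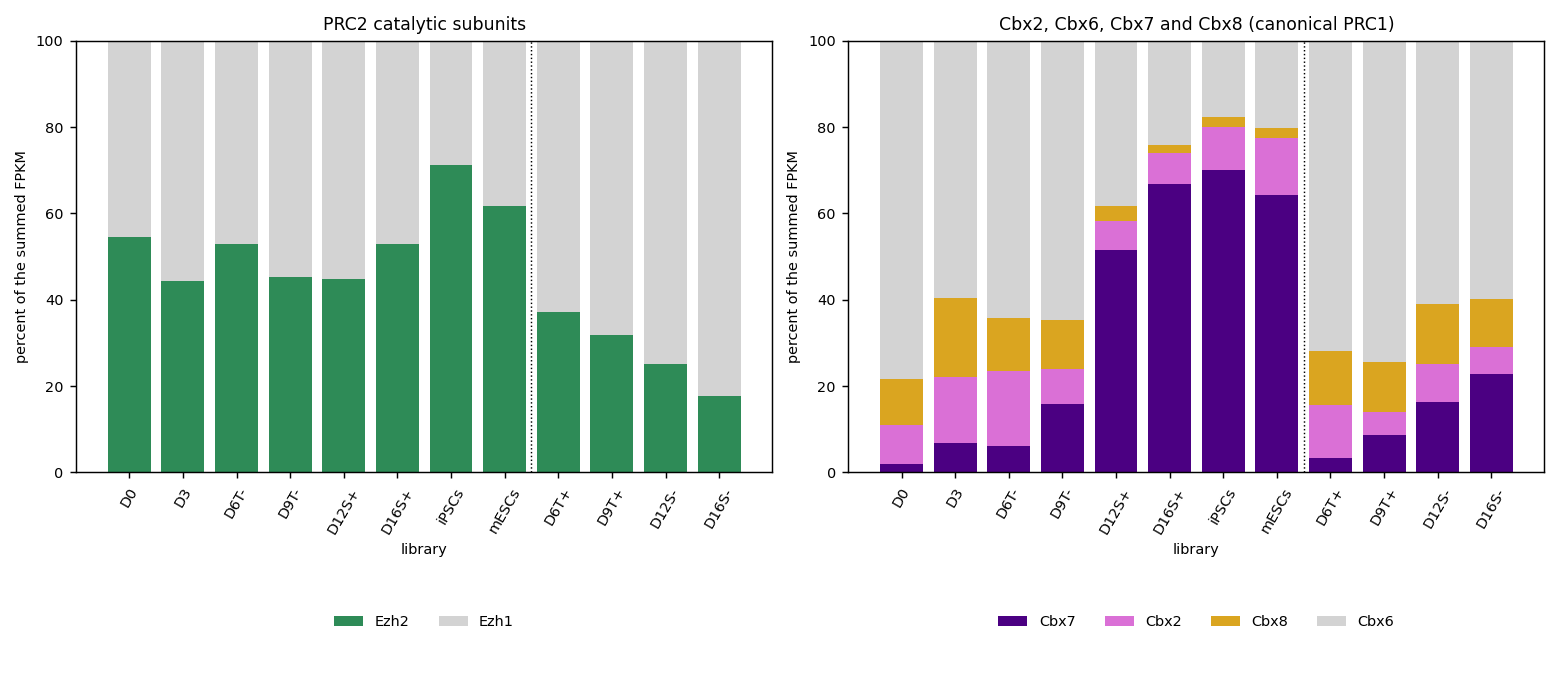
Stacked bars of the percent of summed FPKM for Ezh2 and Ezh1 (left) and for Cbx2, Cbx6, Cbx7 and Cbx8 of canonical PRC1 (right), 1 bar per library, with the Thy-1+ and SSEA-1- fractions to the right of the dotted line. The Ezh2 share is 71.2% in iPSCs and 17.8% in D16S-, and the Cbx7 share passes 50% only in D12S+, D16S+, iPSCs and mESCs.

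To see how the members as a list separated the end points, iPSCs were compared with D0. Ezh2, Eed, Suz12, Jarid2, Mtf2 and Cbx7 were at least 2-fold higher (6 of 10 members, against 18.7% of the 14178 kept genes), and Phf19 was at least 2-fold lower (1 of 10, against 21.6%). The median log2 difference of the members was 1.94, and that of all kept genes was 0.03. Ezh1 (0.64), Cbx2 (0.80) and Bmi1 (-0.81) were within 2-fold on this scale. As a plain FPKM ratio, Bmi1 was 2.28-fold lower in iPSCs (1.40 against 3.19 FPKM). The Phf19 difference of -1.11 became -0.90 with total FPKM equalised between libraries, and that of Cbx2 became 1.02, so that 7 members were higher and 0 lower. The shares of kept genes were not recomputed at that scaling, which moved their median to 0.18. The median range over the 12 libraries was 2.25 log2 units for the members and 1.57 for kept genes, and 96.8% of kept genes had a smaller range than Cbx7, 92.9% than Jarid2 and 58.0% than Bmi1.

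**Figure D4:**
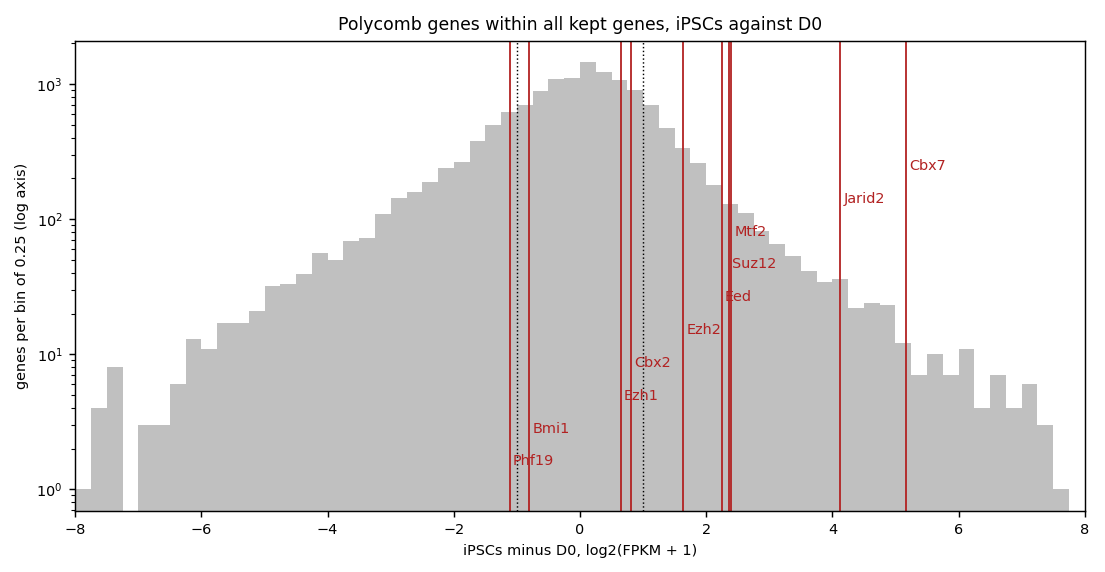
Histogram of the difference between iPSCs and D0 in log2(FPKM + 1) for the 14178 kept genes (bins of 0.25, log axis of gene counts), with a red line at each Polycomb gene and dotted lines at 2-fold. Of the 10 genes, 8 lie right of the median of 0.03, with Jarid2 at 4.13 and Cbx7 at 5.17, whereas Phf19 (-1.11) and Bmi1 (-0.81) lie left of it.

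The same comparison with mESCs gave 8 members at least 2-fold higher than in D0 (20.7% of kept genes) and 1 lower, Bmi1 (21.9%), with a median of 1.59. Ezh1 and Cbx2 were past 2-fold in mESCs and not in iPSCs, although with total FPKM equalised Cbx2 was past 2-fold in both (1.02 in iPSCs and 1.17 in mESCs). Both comparisons share the D0 library. Between iPSCs and mESCs themselves, none of the 10 members was 2-fold apart (6.79% of kept genes were higher in iPSCs and 7.41% lower). The differences nearest to 2-fold were -0.88 for Ezh1, 0.88 for Suz12, 0.87 for Jarid2 and -0.85 for Phf19. As plain FPKM ratios, Bmi1 was 2.26-fold higher in iPSCs and Phf19 2.14-fold lower, at low levels at which the added 1 FPKM shrinks a fold. From D16S+ to iPSCs, Eed was at least 2-fold higher (1 member, 4.38% of kept genes) and Ezh1 and Phf19 were lower (2 members, 7.77%).

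At day 3, before any sorting, 1 member was past 2-fold against D0, the lower Phf19 (8.67% of kept genes were lower), and none was higher (5.76%). The median of the members was 0.24 and that of kept genes -0.02. The largest difference upwards was that of Ezh1 (0.72), and Jarid2 (0.53), Suz12 (0.47) and Cbx7 (0.46) followed. The fibroblast markers were at 1630 FPKM in sum in D3 against 5939 in D0, and the pluripotency markers were at 1.62 FPKM.

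To separate the routes, both fractions of a day were set against each other. On day 6, Jarid2 was 2.61-fold higher in D6T- than in D6T+ (log2 difference 1.27), the only member past 2-fold (1 of 10, against 2.93% of kept genes). No member was lower, against 9.47% of kept genes. On day 9 no member was past 2-fold in either direction (1.81% of kept genes were higher and 6.45% lower), although all 10 were above 0, with a median of 0.37 against 0.02 for kept genes. Ezh2 lay just inside the threshold on days 6, 9 and 12, with log2 differences of 0.98, 0.95 and 0.94 and plain FPKM ratios of 2.14, 2.09 and 2.02. With total FPKM equalised it was past the threshold on days 6 (1.04) and 9 (1.05).

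On day 12, Jarid2 (1.21), Mtf2 (1.08), Phf19 (1.44) and Cbx7 (2.31) were at least 2-fold higher in the SSEA-1+ fraction, 4 of 10 members against 4.79% of kept genes. None was lower, against 3.03%, and the median was 0.84 against -0.01. On day 16, Ezh2 (1.92) and Suz12 (1.51) joined them, beside Jarid2 (1.78), Mtf2 (2.51), Phf19 (2.10) and Cbx7 (2.39), which made 6 of 10 members against 11.8% of kept genes. On the log2(FPKM + 1) scale, no member was 2-fold lower in D16S+ than in D16S-, against 15.2%, and the median was 1.64 against -0.02. Cbx2 (0.99) and Eed (0.91) were just under the threshold. With total FPKM equalised they were past it (8 of 10 members), a scaling at which the share of kept genes was not computed. Ezh1 (-0.26) and Bmi1 (-0.62) were on the other side of 0. As plain FPKM ratios, Bmi1 was 2.05-fold lower in D16S+ (1.05 against 2.16 FPKM) and Cbx2 2.24-fold higher.

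**Figure D5:**
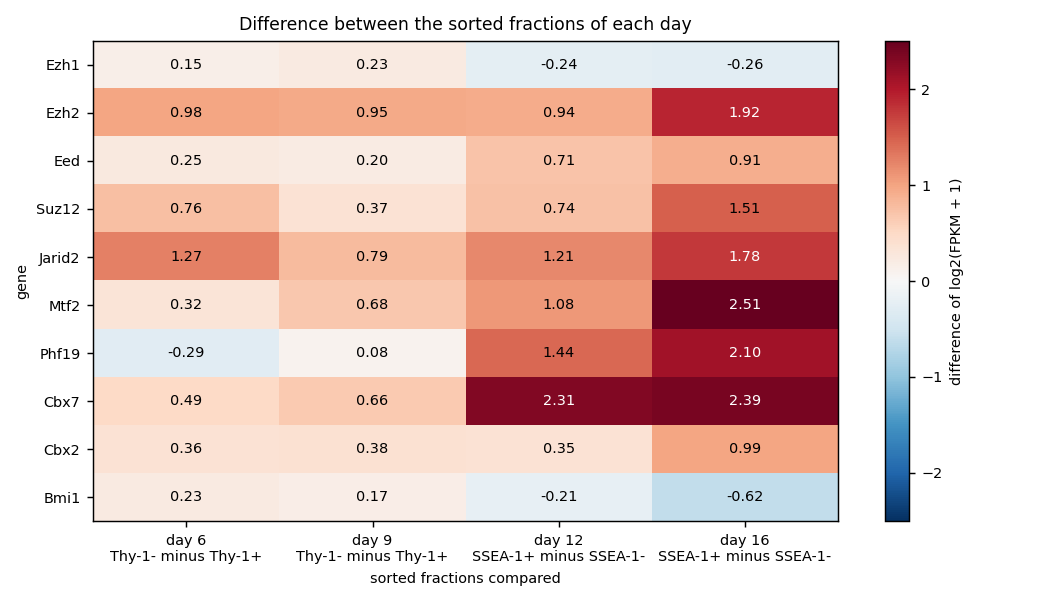
Difference in log2(FPKM + 1) between the sorted fractions of each day (columns) for the 10 Polycomb genes (rows), with the value printed in each cell and the colour scale in log2 units, 1 library per fraction. Jarid2 is at 0.79 or more on all 4 days, Phf19 moves from -0.29 on day 6 to 2.10 on day 16, and Ezh1 and Bmi1 are below 0 on days 12 and 16.

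Each day-16 fraction was also set against D0, a library that both comparisons share. D16S+ had 7 members at least 2-fold higher (20.0% of kept genes) and 1 lower (20.9%), with a median of 1.64. D16S- had 3 higher, Ezh1, Jarid2 and Cbx7 (12.8% of kept genes), and 1 lower, Phf19 (11.4%), with a median of 0.25. Ezh2 was at 21.9 FPKM in D16S+, 5.06 in D16S- and 6.48 in D0, and Mtf2 at 14.7, 1.76 and 1.32 FPKM. The fractions of day 16 differed in other lists as well. All 6 pluripotency markers were at least 2-fold higher in D16S+ and all 5 fibroblast markers lower (medians 4.51 and -3.27), and 6 of the 8 proliferation genes were higher (median 2.07). The epidermal markers Krt5, Krt14, Krt6a and Trp63 summed to 45.9 FPKM in D16S- and 9.65 FPKM in D16S+, mostly from Krt14 (39.9 and 8.24 FPKM). Of the leukocyte markers, the defining gene Ptprc was at 0.0269 FPKM in D16S- and listed at 0 in D16S+, while the list of 5 genes summed to 137 and 68.7 FPKM, mostly from Cd68 (115 and 62.0 FPKM). The SSEA-1- and SSEA-1+ values were 19.9 and 6.63 FPKM for Csf1r, 0.897 and 0.0724 FPKM for Tyrobp and 0.509 and 0.0334 FPKM for Lyz2, so that all 5 were higher in D16S-. Of the 4 that passed the filter, 1 was past 2-fold. Whether epidermal cells or leukocytes were present, and their part in the differences of the members, was not tested.

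The other Polycomb genes were listed by complex, 26 in all, and each passed the filter. Between iPSCs and D0, 14 of the 26 were at least 2-fold higher (18.7% of kept genes) and 6 lower (21.6%), with a median of 1.11 against 0.03 for kept genes. Of the PRC2 core, the histone-binding subunit Rbbp4 was higher (46.2 against 20.0 FPKM) and Rbbp7 was within 2-fold (50.7 against 27.0). Among the 3 further PRC2 accessory genes, Aebp2 was higher (67.5 against 24.8 FPKM) and so was E130012A19Rik (Epop), at 289 against 6.65 FPKM. Phf1, the third Polycomb-like gene, was lower (8.21 against 18.7 FPKM), as was Phf19 among the members, whereas Mtf2 was higher.

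In canonical PRC1 the 9 further genes split, with 3 higher, 4 lower and a median of -0.36. Phc1, a Polyhomeotic protein that links PRC1 complexes, was at 177 FPKM in iPSCs and 11.1 in D0, and its paralog Phc2 at 36.7 and 224 FPKM. Among the CBX genes, Cbx6 fell by 1.36 on the log2 scale and Cbx8 fell by 1.24. Pcgf2 (61.8 against 28.6 FPKM) and the ubiquitin ligase Rnf2 (15.7 against 6.52) were higher, and Scmh1 was lower (12.1 against 26.3). In variant PRC1, which lacks the CBX proteins of canonical PRC1, 6 of 9 genes were higher and 1 lower, with a median of 1.59. Kdm2b, which binds unmethylated CpG sites, was at 56.9 against 10.0 FPKM, L3mbtl2 at 93.1 against 17.4, Pcgf6 at 13.7 against 1.98, Bcor at 28.7 against 8.90 and Pcgf5 at 4.17 against 1.35. The related subunits Rybp and Yaf2 ran in opposite directions, Rybp at 15.6 against 2.69 FPKM and Yaf2 at 3.02 against 13.4 FPKM. Of the PR-DUB genes, whose complex removes the PRC1 mark, Asxl1 (39.0 against 11.8 FPKM) and Asxl2 (7.10 against 1.92) were higher and Bap1 was within 2-fold.

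Between the sorted fractions the same 26 genes gave 1 higher and 0 lower on day 6 (2.93% and 9.47% of kept genes) and 0 and 0 on day 9 (1.81% and 6.45%). They gave 3 higher and 1 lower on day 12 (4.79% and 3.03%) and 8 higher and 5 lower on day 16 (11.8% and 15.2%). Of the further PRC2 genes, Rbbp4 (1.58), Rbbp7 (1.09) and E130012A19Rik (1.16) were past 2-fold higher on day 16, Phf1 was lower (-1.21) and Aebp2 was within 2-fold (0.16). The genes past 2-fold on both days 12 and 16 were Phc1, Rybp and L3mbtl2, higher in the SSEA-1+ fraction, and Cbx8, lower in it. Phc1 was at 141 FPKM in D12S+ against 40.4 in D12S-, and at 170 in D16S+ against 33.3 in D16S-. L3mbtl2 was at 43.8 against 17.5 FPKM and at 61.5 against 16.8 FPKM. E130012A19Rik was past 2-fold on days 6 (62.1 against 17.6 FPKM) and 16 (45.2 against 19.7 FPKM).

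Finally, the members were compared with each other and with the rest of the table by their pattern over the 12 libraries. These libraries share cells, days and sorts, so the correlations are descriptions. On the log2 scale, Suz12 and Mtf2 had a Pearson correlation of 0.95, Jarid2 and Cbx7 of 0.92, Eed and Suz12 of 0.91 and Ezh2 and Suz12 of 0.89. Ezh1 had correlations between -0.44 and 0.51 with the other members, and Bmi1 was negative with all 9, to -0.90 with Cbx7. Among 8701 genes with a mean of at least 5 FPKM, the closest to Ezh2 were Mcm7 (0.989), Brca1 (0.987) and Mcm10 (0.984). Closest to Cbx7 were Mkrn1 (0.998), Utf1 (0.997) and Trap1a (0.995), and closest to Jarid2 were Sall4 (0.980), Slc35f2 (0.979) and Gm6792 (0.977). Mtf2 was nearest to Plekhf2 (0.989), Suz12 to Mllt10 (0.987), Eed to H2-M5 (0.988), Cbx2 to Stip1 (0.983) and Bmi1 to Tcf12 (0.981). Ezh1 and Phf19 had the least close neighbours, Nipal3 (0.953) and Rad50 (0.903).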

How the data were processed

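Messenger RNA of 12 libraries, 1 per condition, was analysed, with groups as the titles name them. The pos and neg columns of a day were read as its sorting marker being present or absent. The authors prepared TruSeq libraries (a stranded kit per the labels, another kit not called stranded in the methods), mapped reads to mm9 with STAR and removed reads with more than 2 mismatches or more than 1 locus. The deposited values are FPKM from cuffdiff with an interval for each. Versions, the annotation and the library scaling were not given in the sources used here. Genes with near-identical copies lose reads in this filter, and the intervals are modelled from 1 library. A further 12 columns of status words were not used.

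FPKM were analysed as log2(FPKM + 1), which understates changes of low genes. Genes with at least 1 FPKM in at least 1 library were kept. Genes at least 2-fold apart on this scale were counted without a test, and medians were taken over the list. Fragments were estimated from the FPKM step of 1 fragment in 3732 genes of at least 1500 bases, with the longest annotated transcript as length, which makes them upper estimates that cover counting error only. This step and the comparisons of D16S+, D16S- and mESCs with D0 and of iPSCs with D16S+ were added after the data had been seen. Members, lists and motifs were chosen with earlier results of these data known. Other Polycomb genes are named where 2-fold apart between iPSCs and D0 or in at least 2 of the 4 fraction pairs, or as paralogs whose share is given. A further gene is not reported here and is in none of the counts or shares. The 3 genes of highest Pearson correlation were taken per member and at least the closest is named. Positions are from GENCODE M1 (mm9) and promoters from RefSeq (GRCm38.p6). Functions were tested on simulated data with Python 3.11.15, numpy 2.4.6, pandas 2.3.3 and matplotlib 3.10.9. Alternatives were a pseudocount of 0.1 FPKM or none, other library scalings, a fold of 1.5, other filters and the interval ends.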

Additional observations from a re-analysis of the deposited data

Results flagged for a closer look

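Some members differed in opposite directions between days or routes, and none of these differences was tested, since each condition had 1 library. Ezh2 was 1.61 higher on the log2 scale in D16S+ than in D0, and its difference in D16S- was -0.30. With libraries scaled to the same total FPKM the latter was -0.05. Phf19 was 0.84 higher in D16S+ than in D0 and fell by 1.26 in D16S-. Between the sorted fractions, Phf19 was at -0.29 on day 6 and at 2.10 on day 16. Ezh1 was at 0.23 on day 9 and at -0.26 on day 16, both within 2-fold. Bmi1 was at 0.23 on day 6 and at -0.62 on day 16, also within 2-fold on this scale. Its plain FPKM ratio on day 16 was 2.05-fold lower in D16S+.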

How the results depend on the processing

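No paired analysis was possible because the labels give no replicate numbers and each condition had 1 library, and the sorted fractions of a day were compared within that day, 1 library against 1. The 33 medians of the members recomputed under the other settings all moved by less than 0.5 log2 units. The single-gene differences did so in 421 of 440 cases, and the other 19 came from the pseudocount of 0.1 FPKM (8) or none (11), the latter chosen after seeing the data, as were the comparisons of D16S+, D16S- and mESCs with D0 and of iPSCs with D16S+. Of all these differences, 1 turned in sign: Ezh2 from D16S+ to iPSCs was 0.02, and -0.14 with total FPKM equalised between libraries. That scaling moved the median of kept genes to 0.18 between iPSCs and D0 and to 0.35 between D16S+ and D0.

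With a pseudocount of 0.1 FPKM, 2 members were lower in iPSCs than in D0, 2 higher in D6T-, 1 higher in D9T-, and 1 higher and 1 lower in iPSCs than in mESCs. Scaled to the same total FPKM, 0 members were lower in iPSCs and 0 in D16S+ than in D0, 2 were higher in D6T-, 1 in D9T- and 0 in iPSCs against D16S+. At a fold of 1.5, 2 members were lower in iPSCs than in D0, 1 higher in D3, 3 higher in D6T-, 4 in D9T- and 7 in D12S+. On day 16 there was 1 lower in D16S+, between iPSCs and mESCs 3 higher and 2 lower, in D16S- against D0 2 lower and in iPSCs against D16S+ 2 higher. The median of ratios changed none of the 22 counts by over 1.5 times. Dropping the filter moved all 22 background percentages, and a filter of 5 FPKM none. The background percentages were not recomputed for the other pseudocount, scalings or fold. The counts of members at those settings therefore have no share of kept genes beside them.

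With opposite interval ends the Ezh2 share went down to 0 in 10 libraries, to 0.895% in iPSCs and to 2.80% in mESCs. It went up to 100% in D0, D3, D6T-, iPSCs, D6T+ and D9T+, and to 99.2% in D9T-, 97.1% in D12S+, 98.0% in D16S+, 98.8% in mESCs, 92.5% in D12S- and 89.3% in D16S-.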
